A study of Homo sapiens with 3 samples.

Results

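ZBTB11 is a transcription factor with an N-terminal BTB domain and C-terminal zinc fingers, and the study mapped its sites on chromatin in lung cancer cells by chromatin immunoprecipitation followed by sequencing (ChIP-seq). The regions described here are wide ZBTB11 peaks at promoters that read in 1 direction and carry the 7-base consensus, CCGGAAG or CAGGAAG, at the peak summit. A peak was selected when it lay on chromosomes 1 to 22 or X, was at least 500 bp wide, held GENCODE protein-coding transcript starts of a single strand within 500 bp of its interval, and had the consensus on either strand within 50 bp of its summit. Of 346803 ZBTB11 peaks on these chromosomes, 51238 were at least 500 bp wide and 8615 of those were one-strand promoter peaks. The consensus was present at the summit of 1642 of these, 19.1% (Wilson 95% interval 18.2 to 19.9), and these 1642 peaks are called the members below. The other 6973 one-strand promoter peaks lacked it, and 1208 wide peaks had coding starts on both strands and were not members. Width, summit position and the presence of the consensus chose the members, so those values are descriptions and not findings. The study derived the consensus de novo from the peaks of its ChIP-seq that it calls ZBTB11-high. Peak height, the consensus share by peak strength and the gathering of copies at summits are therefore not independent of how the consensus was found.

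The series holds 3 libraries of wild-type NCI-H1299, an established human lung cancer line, all from untreated cells fixed with formaldehyde. The antibody was against ZBTB11 in one, was normal IgG in another, and was absent in the Input library, which was not analysed here. Each group had 1 library, so nothing below has a replicate check, and all intervals cover counting error over peaks only. Peak lists hold no expression values, so the cell line could not be checked against markers, and they do not hold the number of fragments mapped in each library.

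DNA motifs with a GGAA core are bound by the large ETS family of transcription factors, and many promoters of housekeeping genes carry them close to the transcription start site (TSS). Such promoters are usually rich in CpG dinucleotides and lack a TATA box. A consensus reads in 1 direction, so a copy lies either on the coding strand of the gene or on its template strand. A ChIP peak locates protein on the DNA only to within the length of the fragments, and it does not show which protein of a complex touches the DNA.

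The strongest members show what was selected. The sites of the 10 members with the smallest p-values are printed from the hg38 reference, 5′ to 3′ in the direction of the consensus, with the consensus in capitals. The coordinates are those of the printed bases, and the sign is the hg38 strand that is shown.
AQR, chr15:34969811-34969833 (+): gcgtgtagCCGGAAGttcatgca
RPS7, chr2:3575191-3575213 (-): gagagtccCAGGAAGcggctctg
GTF2H2C, chr5:69560159-69560181 (-): ggggcgccCCGGAAGtcattccg
DCAF10, chr9:37800778-37800800 (+): gctgcacgCCGGAAGtggcagct
DMAP1, chr1:44213411-44213433 (+): aacaccgaCCGGAAGtgtttctg
USP30, chr12:109052511-109052533 (-): cagggggaCCGGAAGtagctgcc
COMMD2, chr3:149752486-149752508 (-): cacgggcgCCGGAAGtggcgaag
MTIF2, chr2:55269265-55269287 (-): cagcgggaCCGGAAGcccggcgg
NUP107, chr12:68686960-68686982 (-): ccttcgacCCGGAAGcagtctgt
TVP23B, chr17:18781258-18781280 (+): cgtggctcCCGGAAGtagggctg
Of these 10 sites, 9 had the CCGGAAG form and 7 were followed directly by a T. DMAP1 and MTIF2 had a second copy in the window, which lies outside the printed bases.

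The minor form, CAGGAAG, was the sole form at 501 members, 30.5% (28.3 to 32.8). The strongest of those besides RPS7 are shown to compare their flanking bases with the major form. STX16 is a gene that the study examined, and HEMK1, another such gene, is printed with it.
STX16, chr20:58651201-58651223 (+): gggacggaCAGGAAGagggccag
RUVBL1, chr3:128123967-128123989 (-): agcctcggCAGGAAGcgccggct
RPL37, chr5:40835263-40835285 (-): gcgccccgCAGGAAGtgcttccc
PDCD6, chr5:271390-271412 (-): acctgggaCAGGAAGtgatggag
HEMK1, chr3:50569459-50569481 (+): cgccgaccCCGGAAGcggggcgt
CCGGAAG was present at 1141 members, 69.5% (67.2 to 71.7), and both forms at 62 members. Over all copies at member summits, 68.5% (66.3 to 70.5) were CCGGAAG. In equal windows 500 bp to either side of all 8615 one-strand summits, 28.2% (25.1 to 31.5) of the 748 copies were CCGGAAG. The major form at the summit was thus the minor form away from it. Summit and flank windows were not matched for base composition, and CCGGAAG holds a CpG while CAGGAAG does not. The GC-rich run GGGCGG, searched on both strands, was in 31.2% of member windows and 15.8% of the flank windows of members. Whether base composition accounts for the difference in form was not tested.

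The bases next to the consensus also differed between summits and flanks. The base directly after the consensus was T at 35.2% of the member copies nearest to the summit, against 18.2% of the flank copies. Searched on both strands, the 8-base run CCGGAAGT, which contains the consensus and is a classical ETS site, was in 446 members, 27.2% (25.1 to 29.4). Since members were chosen for the consensus, only windows that hold it can be set beside them. Among windows of the same length with the consensus at canonical protein-coding TSSs, the share was 40.5% (38.2 to 42.8) where a wide ZBTB11 peak was present and 7.14% (5.47 to 9.27) where none was, 30.9% (29.1 to 32.8) over both. Among flank windows with the consensus it was 5.06% (3.69 to 6.90). The longer run was thus no more frequent in members than at TSSs in general, and more frequent than at TSSs without a wide peak. It can occur only in the CCGGAAG form, which made up 68.5% of copies at member summits. That form made up 28.2% of flank copies and 27.9% of copies at TSSs without a wide peak. The contrast with those windows thus in part repeats the difference in form. Over all 19567 TSS windows, with or without the consensus, it was 3.93% (3.67 to 4.21). The 9-base run ACCGGAAGT was the nearest copy of 98 members, 5.97% (4.92 to 7.22), and made up 0.668% (0.286 to 1.56) of the flank copies. The share of the consensus itself was 12.7% in all canonical TSS windows and 6.01% in those without any ZBTB11 peak. A motif match describes the letters in a window and is not evidence of a bound site.

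Summit height is given below as the number of whole fragments over the summit base, which was solved from the deposited fold enrichment and p-value. AQR, which encodes an RNA helicase of the spliceosome, had 476 fragments at its summit, and the copy lay 80 bp upstream of the TSS on the template strand. RPS7, a protein of the small ribosomal subunit, had 496 fragments and a copy 58 bp upstream, also on the template strand. DCAF10, a substrate receptor of a ubiquitin ligase, had 506 fragments and a coding-strand copy 8 bp upstream. All 10 strongest members had between 463 and 506 fragments, 9 had the copy upstream of the TSS, and 5 had it on the coding strand. The tallest one-strand peak lacking the consensus had 515 fragments, so heights at the top were bunched in both groups and rank these genes poorly.

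GTF2H2C, a paralog of a TFIIH subunit gene, had 465 fragments and a copy 21 bp upstream. The central 31 bases of its summit occur 3 times in hg38, as do those of GTF2H2, another member, which had 425 fragments. Whether the longer sequenced fragments of these paralogs can be told apart was not tested. DMAP1, a subunit of a histone acetyltransferase complex, had 491 fragments and 2 coding-strand copies whose middles were 40 bp apart. USP30, a deubiquitinase of mitochondria, had 490 fragments, and COMMD2, a protein of the Commander complex, had 463. MTIF2, a mitochondrial translation initiation factor, had 464 fragments and 2 copies that faced each other 51 bp apart. NUP107, a scaffold protein of the nuclear pore, had 482 fragments with its copy 7 bp upstream of the TSS. TVP23B, a Golgi membrane protein, was the exception in position, with 490 fragments and the copy 86 bp downstream.

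The member peaks were taller than the one-strand promoter peaks that lacked the consensus, although the ranges overlapped throughout. Since the consensus came from ZBTB11-high peaks of these data, this difference is a description and not independent support for the consensus. Members had a median of 38 fragments at the summit (35 to 42), with quartiles of 17 and 98.8 and a range of 3 to 506. One-strand peaks lacking the consensus had a median of 14 fragments (14 to 15), quartiles of 8 and 30, and a range of 3 to 515. Median fold enrichment over the local background was 8.60 (8.23 to 9.05) in members and 4.45 (4.37 to 4.55) in the peaks that lacked it, a ratio of 1.93 (1.81 to 2.07). The median background at the summit was 3.64 and 2.40 fragments. A q-value of 0.05 or less was given to 94.6% (93.4 to 95.6) of members and 76.9% (75.9 to 77.9) of the lacking peaks, while 7.70% of all ZBTB11 peaks had one. Both-strand peaks with the consensus, 301 in number, were taller again, at a median of 68 fragments (55 to 86).

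Among the weak members, UTF1, ABCA5 and RUNX1 had the largest p-values, and each had 3 fragments over a background of 1.35. The narrowest members were FAM86B1 (501 bp), ZNF175 (502 bp) and SORT1 (502 bp), and just below the width limit were CFLAR (499 bp), MRPL38 (498 bp) and TNS2 (497 bp). The copy was 47 bp from the summit in LTN1, ZNF850 and ERGIC3, the farthest that a whole copy can lie within the window. At 48 bp, just outside, were PSMG3 with 488 fragments, NDUFAF1 with 444 and CDC16 with 293, so tall peaks stood on both sides of that limit.

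The share of one-strand promoter peaks that were members varied with peak strength, which is likewise a description, given the source of the consensus. Among the 100 peaks with the smallest p-values 38% (29.1 to 47.8) held the consensus, and among ranks 101 to 500 it was 45.8% (40.9 to 50.6). The share was 42.6% at ranks 501 to 1000, 33.8% at ranks 1001 to 2000 and 22.1% at ranks 2001 to 4000. It was 9.27% (8.47 to 10.1) at ranks 4001 to 8615, where summits had 3 to 37 fragments. The flank windows of the same rank classes held the consensus in 2.50% to 5.50% of cases, and over all 8615 peaks in 4.24% (3.95 to 4.55). The 259 wide one-strand promoter peaks of the IgG list held it in 15 cases, 5.79% (3.54 to 9.33). Those IgG peaks lay on chromosomes 1, 10 and 21 only, whereas the ZBTB11 shares cover all the chromosomes used. They were also low, with 4 to 12 fragments where they overlapped a member, so they are not matched in height to the stronger ZBTB11 classes.

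Copies gathered at the summit on both strands. The density over all 8615 peaks was 2.32 copies per kb in the 20 bp just upstream of the summit, and it averaged 0.470 copies per kb from 300 to 500 bp away. The rule admits only copies up to 47 bp from the summit, so distances within members describe the window, with a median of 22 bp (21 to 23). Coding-strand copies were more frequent just upstream of the summit and template-strand copies just downstream, as the plot of copies around the summit shows. Measured along the direction of the consensus, the summit lay a median of 5 bp (3 to 7) past the middle of the copy, towards its GGAAG end and beyond.

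**Figure D1:**
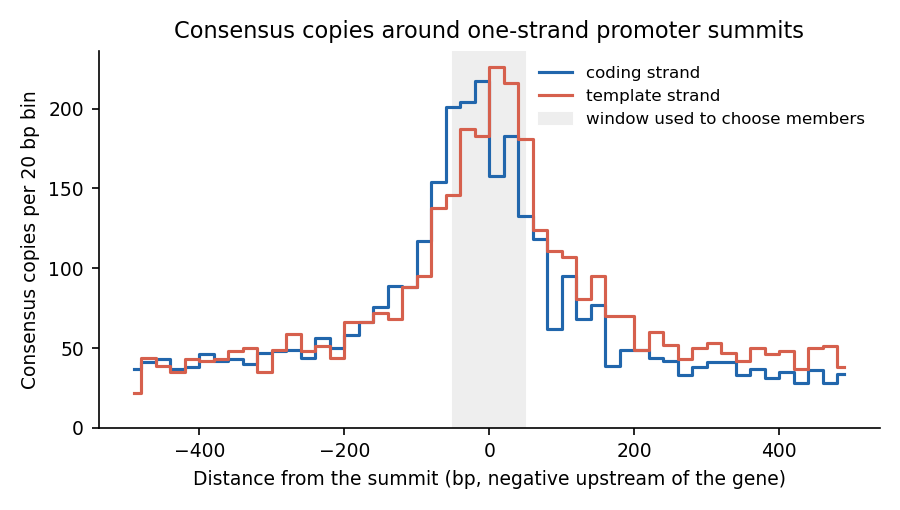
Consensus copies per 20 bp bin against the distance from the summit, negative upstream of the gene, for all 8615 one-strand promoter peaks; the blue line counts copies on the coding strand, the red line copies on the template strand, and the shaded band is the window that chose the members. Both lines rise at the summit, with 217 coding-strand and 183 template-strand copies in the bin just upstream of it.

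In the tallest peaks the copy was seldom at the summit itself. This pattern was chosen after its values were seen. The tallest summits had 506 fragments in members and 515 in one-strand peaks lacking the consensus. In both-strand peaks with and without the consensus they had 495 and 499. Whether a shared upper limit on height affects where the summit was placed in such peaks was not tested. Among the 250 one-strand promoter peaks with the smallest p-values, 14 copies lay within 10 bp of the summit, 0.267 copies per 100 bp of sequence. Between 30 and 50 bp on either side of the same summits lay 66 copies, 0.629 per 100 bp. At ranks 251 to 1000 both zones held about the same density, 0.508 and 0.511 per 100 bp. At ranks 1001 to 4000 the densities were 0.310 and 0.283. Within the window that chose the members, the median distance from the summit did not follow strength. It was 24 bp (22 to 25) in the 250 strongest members, 21 bp in the next 250 and at member ranks 501 to 1000, and 23 bp (21 to 25) at ranks 1001 to 1642. The 10 strongest members had copies 6 to 45 bp from the summit, with a median of 36.5 bp (14 to 44).

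**Figure D2:**
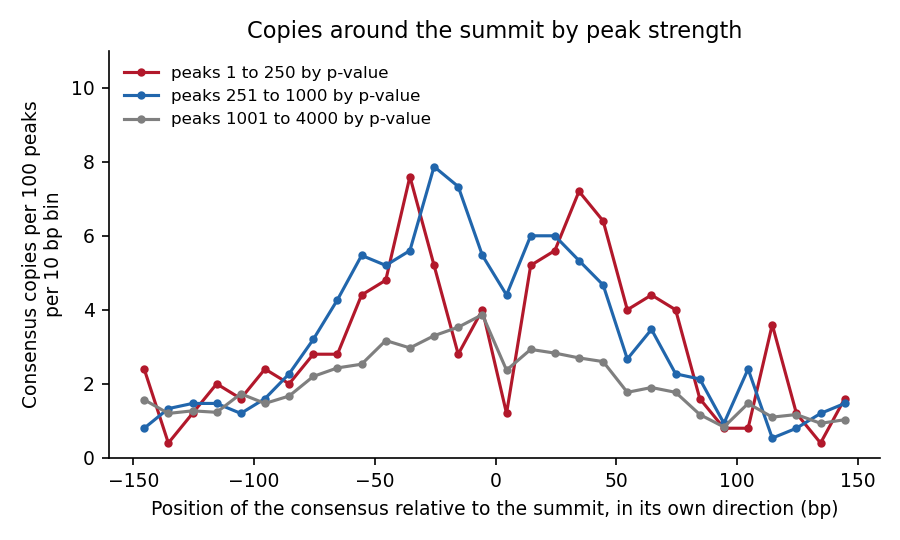
Consensus copies per 100 peaks in each 10 bp bin against the position of the copy relative to the summit, read in the direction of the consensus, for 3 classes of one-strand promoter peaks by p-value. The red line of the 250 strongest peaks dips at the summit and has its highest bins at 30 to 40 bp on either side, with 19 and 18 copies.

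Relative to the gene, copies lay just upstream of the TSS. The nearest copy in members was a median of 14 bp upstream of the reference TSS (-17 to -11 bp), with quartiles at -101 and 119 bp. It was upstream in 957 members, 58.3% (55.9 to 60.6), and downstream in 678, 41.3%. Within 50 bp of the TSS lay 598 copies, 36.4% (34.1 to 38.8), and the 50 bp just upstream alone held 406, 24.7% of the members. The copy covered the TSS base itself in 50 members. The window was tied to the summit, so the position of the copy is not independent of that of the summit. The summit was within 100 bp of the TSS in 48.7% (46.2 to 51.1) of members and 27.6% (26.6 to 28.7) of one-strand peaks lacking the consensus.

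**Figure D3:**
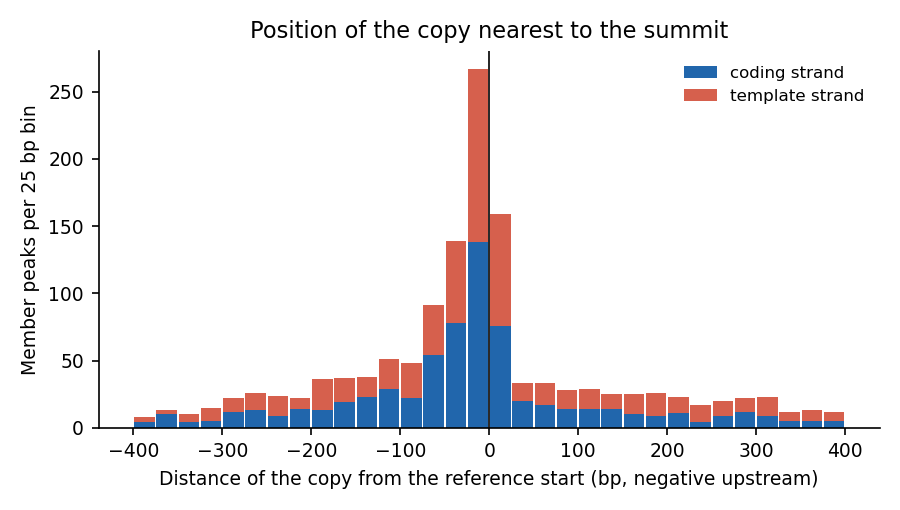
Number of member peaks per 25 bp bin against the distance of the nearest copy from the reference TSS, negative upstream; stacked bars give copies on the coding (blue) and template (red) strand, and the line marks the TSS. The bin just upstream of the TSS holds 267 members and the bin just downstream 159.

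Summit height differed with the position of the copy, and not by nearness to the TSS alone. Median fragments were 76 where the copy lay 50 to 100 bp upstream, 65 in the 50 bp just upstream and 51.5 in the 50 bp just downstream. Farther upstream the median was 44 at 100 to 200 bp, 31 at 200 to 500 bp and 23 beyond. On the downstream side it was 25 already at 50 to 100 bp, 23 at 100 to 200 bp, 25.5 at 200 to 500 bp and 19 beyond. Among the 250 strongest members the median distance between copy and TSS was 51 bp (35 to 59), and among those ranked 1001 to 1642 it was 194 bp (168 to 224). By annotation, 37.9% (35.6 to 40.3) of the nearest copies were upstream of every protein-coding transcript, 32.2% (30 to 34.5) were in a UTR, 22.8% (20.8 to 24.9) in an intron and 7.13% (5.98 to 8.47) in a coding exon.

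Copies on both strands were about equally frequent. The nearest copy was on the coding strand in 808 members, 49.2% (46.8 to 51.6). The coding-strand share was 52.5% (49.3 to 55.6) upstream of the TSS and 44.8% (41.1 to 48.6) downstream, where it was 39.9% (33.3 to 46.8) between 200 and 500 bp. It was 52.1% (49.1 to 55) for nearest copies of the CCGGAAG form and 43.2% (39.1 to 47.5) for CAGGAAG. Copies in the flank windows were on the coding strand in 46.3% (42.7 to 49.8), and copies at canonical TSSs without a wide ZBTB11 peak in 46.4% (42.9 to 50). The summits were of like height, at a median of 40 fragments (36 to 45) with a coding-strand copy and 36 (32 to 42) with a template-strand copy. Those intervals overlap, which does not show that the heights are equal.

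Most members had a single copy. The window held 1 copy in 1452 members, 88.4%, 2 copies in 167, 3 copies in 21, and 4 and 5 copies in 1 member each. The 190 members with at least 2 copies were 11.6% (10.1 to 13.2) of all. Over the whole peak interval, 835 members, 50.9% (48.4 to 53.3), held at least 2 copies. Of the one-strand peaks that lacked the consensus at the summit, 43.8% (42.6 to 44.9) had a copy elsewhere in the peak.

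Summit height went up with the number of copies. The median was 35 fragments (33 to 38) with 1 copy, 82 (58 to 111) with 2 and 98 (59 to 206) with 3 or more, and the last 2 intervals overlap. Single CCGGAAG copies went with a median of 47 fragments (42 to 52) over 969 members, and single CAGGAAG copies with 22 (19 to 25) over 483. The minor form still reached 496 fragments, at RPS7.

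**Figure D4:**
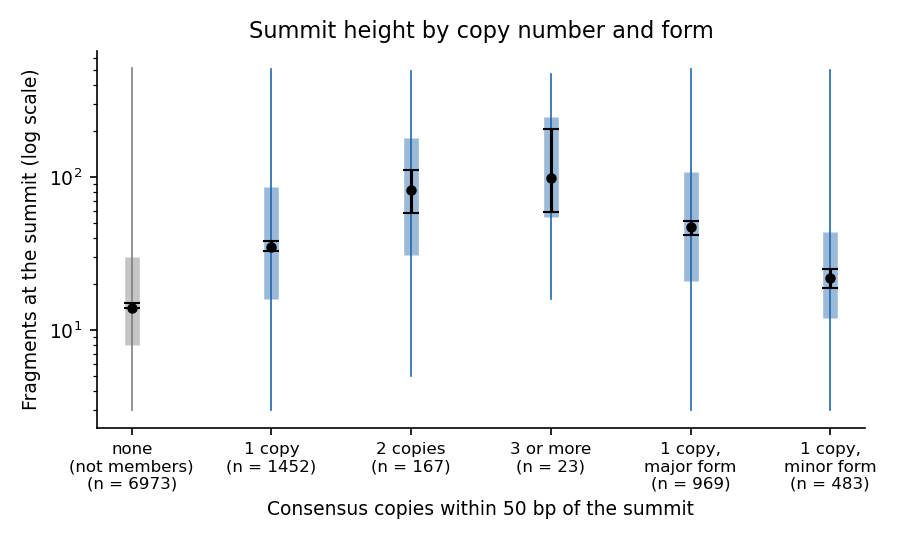
Fragments at the summit, on a log scale, for one-strand promoter peaks by the number of consensus copies within 50 bp and, for single copies, by form (major is CCGGAAG, minor is CAGGAAG); dots are medians with 95% order-statistic intervals, boxes span the quartiles and thin lines the full range. Medians rise from 14 without a copy to 35 with 1 and 82 with 2, while the ranges overlap.

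In the 167 members with 2 copies, both pointed the same way in 80, their GGAAG ends pointed apart in 48, and they faced each other in 39. The median spacing between their middles was 30 bp. The single most frequent arrangement was a pair whose GGAAG ends pointed apart at a spacing of 3 bp, in 13 members. There the copies overlap and form the 10-base palindrome CTTCCGGAAG, printed here in capitals for 4 members in the direction of the gene, because a search counts it as 2 copies.
TPRKB, chr2:73737348-73737375 (-): tggccatcgCTTCCGGAAGttgtgagct
PEF1, chr1:31645059-31645086 (-): ccgccaagaCTTCCGGAAGctccatcaa
GAPVD1, chr9:125261642-125261669 (+): gtgaacagcCTTCCGGAAGacgattccg
DDX27, chr20:49219414-49219441 (+): ctgtgctcgCTTCCGGAAGtggcttctg
TPRKB, a subunit of a tRNA-modifying complex, had 312 fragments, PEF1 had 202, GAPVD1 had 174, and DDX27, a helicase of ribosome assembly, had 129. RIPK2, a kinase of innate immune signalling, also held the palindrome and had 190 fragments. Counting members with 3 copies too, 15 members held it, and they had 7 to 312 fragments with a median of 32. No other arrangement and spacing was shared by more than 4 members.

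The members with most copies were of several kinds, and whole summit windows are printed for 4 multi-copy members that lie outside every annotated exon, in the direction of the gene with each copy in capitals.
DPEP1, chr16:89616702-89616802 (+): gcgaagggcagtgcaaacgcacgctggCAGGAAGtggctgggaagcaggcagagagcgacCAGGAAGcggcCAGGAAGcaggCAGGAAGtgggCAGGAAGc
PCSK6, chr15:101334265-101334365 (-): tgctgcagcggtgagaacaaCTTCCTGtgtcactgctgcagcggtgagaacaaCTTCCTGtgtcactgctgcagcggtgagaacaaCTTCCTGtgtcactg
RIPK1, chr6:3068931-3069031 (+): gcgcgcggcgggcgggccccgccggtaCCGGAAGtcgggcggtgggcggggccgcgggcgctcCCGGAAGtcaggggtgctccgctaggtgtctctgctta
FBXW11, chr5:172006888-172006988 (-): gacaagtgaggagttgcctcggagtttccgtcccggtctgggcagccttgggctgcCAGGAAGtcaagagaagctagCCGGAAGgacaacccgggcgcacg
DPEP1, which encodes a membrane dipeptidase, had 5 CAGGAAG copies in a short tandem repeat and 16 fragments. PCSK6, a proprotein convertase, had 3 copies in a longer repeat whose central 31 bases occur 8 times in hg38, and 46 fragments. RIPK1, a kinase of death receptor signalling, had 2 CCGGAAG copies and 328 fragments, with the nearest copy in an intron 503 bp downstream of the reference TSS. FBXW11, an F-box protein, had 1 copy of each form and 299 fragments.

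The 23 members with at least 3 copies had 16 to 472 fragments, with quartiles of 54.5 and 245. Those with the smallest p-values are named here. SLX9, a factor of ribosome biogenesis, had 3 template-strand copies and 472 fragments. GRPEL2, a cochaperone of mitochondrial protein import, had 3 coding-strand copies and 401 fragments. ZNF410, a zinc finger protein, had 396 fragments, SRBD1 had 304, TTC14 had 289 and MON1B had 284, each with 3 copies. MYL12B, a regulatory light chain of non-muscle myosin, had 4 copies and 206 fragments.

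The member windows were close to those of the lacking peaks in GC content. Their CpG ratios, which the rule itself affects, and some motif shares differed beyond the intervals. Median GC content over 101 bp was 67.3% (67.3 to 68.3) in members and 68.3% (67.3 to 68.3) in one-strand peaks lacking the consensus. The median observed to expected CpG ratio was 0.873 (0.858 to 0.886) and 0.819 (0.814 to 0.826). The median CpG count was 10 (9 to 10) and 9 (9 to 9). CpGs were counted with the consensus left in, and CCGGAAG itself holds a CpG. The rule thus raises these values in members, and they are not findings. The TATA box letters TATAAA, searched on both strands, were in 0.670% (0.374 to 1.20) of members, 1.16% (0.936 to 1.44) of lacking peaks and 5.25% (4.95 to 5.58) of canonical TSS windows. The SP1 core GGGCGG was in 31.2% (29 to 33.5) of members, 32.6% (31.5 to 33.7) of lacking peaks and 36% (35.3 to 36.7) of TSS windows. The NFY core CCAAT was in 5.66% (4.65 to 6.89), 8.05% (7.43 to 8.71) and 9.35% (8.95 to 9.77), in the same order.

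A related run of letters, CGGAAC, which cannot occupy the same bases as the consensus but can overlap it in part, was searched on both strands after its values were seen. It was in 216 members, 13.2% (11.6 to 14.9), in 9.55% (8.88 to 10.3) of lacking peaks, in 2.25% (1.80 to 2.82) of the flank windows of members and in 4.87% (4.57 to 5.18) of canonical TSS windows. Among members it followed strength, with 30.4% (25 to 36.4) in the 250 strongest, 16% in the next 250, 11% at member ranks 501 to 1000 and 7.01% (5.28 to 9.25) at ranks 1001 to 1642. In the 10 strongest members it was present in 6. Of the 250 strongest peaks that lacked the consensus, 52% (45.8 to 58.1) held it.

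A member peak lay at a coding start of 1667 of 19626 protein-coding genes, 8.49%, which is the background for the gene lists below. A gene list share includes how often the genes had a wide one-strand peak at all, and of the 8176 genes with one, 20.4% had a member. The lists were counted without a test, and many of the genes share a chromosome or a promoter type. Zinc finger genes of chromosome 19, mostly KRAB-type repressors in clusters, had a member at 60 of 246 genes, 24.4% (19.4 to 30.1). Among the 177 of these genes with a wide one-strand peak, 33.9% had a member. The strongest were ZNF837 with 451 fragments, ZNF461 with 496 and ZNF850 with 435. Chromosome 19 also had the highest share of members among its one-strand peaks, 157 of 626 or 25.1% (21.8 to 28.6), against 15% to 23.9% on the other chromosomes.

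Other lists had shares above the background, and for each the share among its genes with a wide one-strand peak is to be read against the 20.4% above. Core spliceosome genes were members at 14 of 58, 24.1% (15 to 36.5), led by AQR, SF3A3 with 456 fragments and SNRNP27 with 429, and at 38.9% of those with a wide one-strand peak. Cytosolic ribosomal protein genes were members at 18 of 82, 22% (14.4 to 32.1), led by RPS7, RPL29 with 458 and RPL37 with 460, and at 38.3% of those with such a peak. RNA polymerase subunit genes were members at 6 of 32, with POLR1B at 328 fragments, and proteasome genes at 7 of 39, with PSMC2 at 351 fragments and 2 copies. Translation initiation factor genes, taken by symbol and so including the kinase EIF2AK1, were members at 9 of 55. Aminoacyl-tRNA synthetase genes, with TARS2 at 443 fragments, were members at 6 of 37, and nuclear pore genes at 5 of 31. The intervals of these last 2 lists, 7.65% to 31.1% and 7.09% to 32.6%, include the background. Mitochondrial ribosomal protein genes were members at 12 of 82, 14.6% (8.57 to 23.9), with MRPS31 at 454 fragments and MRPL3 at 437. Among genes with a wide one-strand peak the member share was 35.3% for RNA polymerase, 31.6% for aminoacyl-tRNA synthetase and 29.3% for mitochondrial ribosomal protein genes. It was nearer to 20.4% for proteasome (26.9%), nuclear pore (23.8%) and translation initiation factor genes (23.7%).

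The other lists had shares near or below the background, and only that of the olfactory receptor genes had an interval wholly below it. Mediator genes were members at 3 of 33, with MED18 at 395 fragments. ETS factor and GABP genes were members at 2 of 29, ELK3 with 18 fragments and FLI1 with 16. DNA replication genes were members at 2 of 48, POLE4 with 14 fragments and GINS4 with 12. Complex I genes were members at 1 of 38, NDUFA12 with 119 fragments. Matrix metalloproteinase and collagen genes were members at 2 of 67, COL14A1 with 6 fragments and COL16A1 with 4. Among genes with a wide one-strand peak the member share was 18.8% for Mediator, 13.3% for ETS and GABP and 15.4% for metalloproteinase and collagen genes, and 13 of the 67 genes of the last list had such a peak. It was 7.41% for DNA replication genes, 2 of 27, and 5.26% for complex I genes, 1 of 19. Olfactory receptor genes were members at 0 of 381, with a Wilson upper limit of 0.998%, and 11 of them had a wide one-strand peak. Taking 3 counts as the limit that a count of 0 allows, their share could be up to 0.787%.

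**Figure D5:**
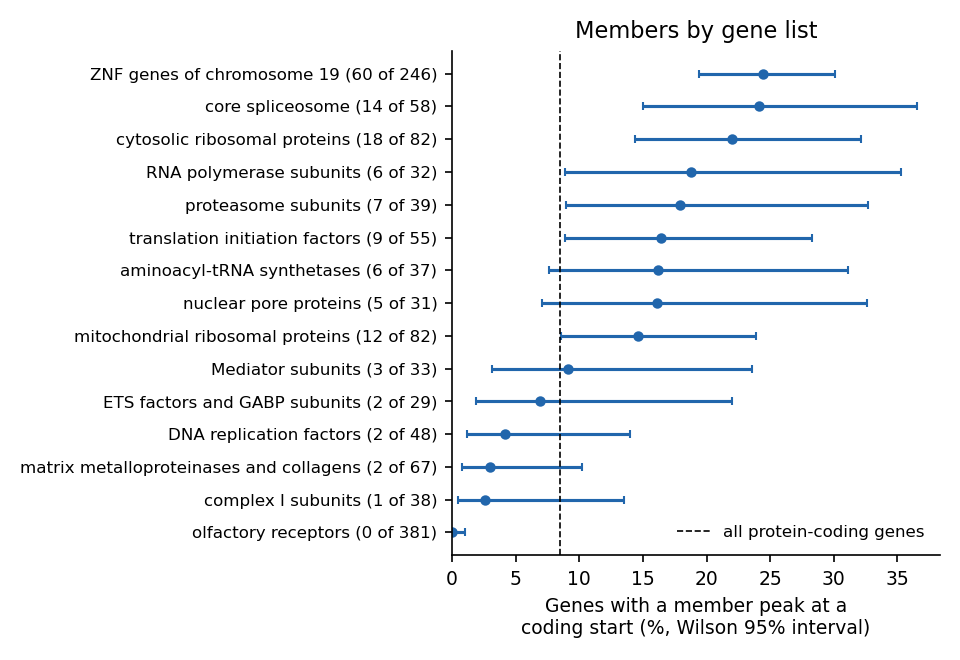
Share of the genes in each of 15 lists that had a member peak at a coding start, in percent, with Wilson 95% intervals and the counts beside each name; the dashed line is the share of all protein-coding genes. Zinc finger genes of chromosome 19, spliceosome and cytosolic ribosomal protein genes lie at 22% to 24.4%, right of the line at 8.49%.

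Of 12 genes that the study examined or named, HEMK1 and STX16 were members. HEMK1, a methyltransferase, had 457 fragments and a coding-strand CCGGAAG copy 52 bp upstream of its TSS. STX16, a SNARE protein of the trans-Golgi network, had 487 fragments and a coding-strand CAGGAAG copy 71 bp upstream. ANKRD40 (445 fragments), COQ3 (400), TACO1 (454) and TTC26 (414) had tall one-strand peaks with 0 copies of the consensus anywhere in the peak. DUS1L had 402 fragments and its single copy lay 99 bp from the summit. The ZBTB11 promoter itself had 369 fragments, and the nearest of its 2 copies was 51 bp from the summit, just outside the window. SET had 9 fragments and no copy. ATPAF1 and PRRG2 had both-strand peaks, with 307 and 444 fragments, and MMP9 had no wide peak at a protein-coding start. For MMP9 the paper proposes binding inside the gene body, and peaks away from coding starts were not examined here.

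The IgG list analysed here held peaks on chromosomes 1, 10 and 21 among these chromosomes, so the overlap was counted on those alone. Of the 1306 wide one-strand promoter peaks there, 38.9% overlapped an IgG peak. Members did so in 102 of 241 cases, 42.3% (36.3 to 48.6), and peaks lacking the consensus in 406 of 1065, 38.1% (35.3 to 41.1). The IgG summits at these 102 members had 4 to 12 fragments with a median of 7, and the ZBTB11 summits had 3 to 472 with a median of 41.5. SLX9 had 472 ZBTB11 and 6 IgG fragments, LTN1 had 453 and 5, and RUNX1, one of the weakest members, had 3 and 6.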

How the data were processed

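The ChIP-seq series has 1 library each for ZBTB11, IgG and Input from NCI-H1299 cells, grouped by sample title. By the study's methods, BWA placed the paired-end reads on hg38, and the authors ran MACS for each antibody alone with a p-value limit of 0.05 and default settings otherwise. The methods name a release of the first MACS series, whereas the deposited layout is that of later releases. The deposited values were the fold enrichment of the summit over the local background (a ratio), −log10 p and −log10 q, a score that was not used, and the position of the summit within the peak.

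The members and all lists were chosen with earlier results of these data known. Whole fragments n over the summit and a background λ were solved from fold = (n + 1)/(λ + 1) and the Poisson p-value, within 0.001 of the deposited −log10 p for all 9823 wide promoter peaks. Transcript starts came from GENCODE release 44 and sequence from hg38. The reference TSS was the Ensembl canonical start in the extended interval nearest to the summit, or else the nearest protein-coding start. Distances were taken from the middle base of the copy nearest to the summit. Annotation classes were given in the order coding exon, UTR and intron of any protein-coding transcript. Canonical TSS windows had 101 bp like the summit windows. Exact matches of the central 31 bases of each summit were counted on both strands of hg38 without alternate haplotypes. The motif scan and the fragment solution were tested on 1000 simulated cases each, and 100% were recovered. A peak was named by the gene of its reference TSS.

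Genes were named by a rule: the 10 members with the smallest p-values, the 8 with most copies, the 3 with the largest p-values, members and other peaks nearest to the width and window limits, 12 genes of the study, and up to 3 members per gene list. Palindrome members, CAGGAAG members, multi-copy windows outside exons and paralogs of repeated sequence were named after their values were seen. With 1 library per group no test was run. Shares carry Wilson 95% intervals and medians 95% order-statistic intervals. Python 3.11.15, pandas 2.3.3, scipy 1.17.1, pysam 0.24.0, numba 0.67.0 and samtools 1.23.1 were used. Wide peaks on chromosome Y, 19 in number, were left out.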

Additional observations from a re-analysis of the deposited data

How the results depend on the processing

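No paired analysis was possible because ZBTB11, IgG and Input were represented by 1 library each, and none could be left out for the same reason. Over 91 values from 12 listed alternatives and 1 added after seeing the data, 69 stayed within the limits set for the value and 22 moved. The added alternative kept only summits whose central 31 bases occur once in hg38. A change of direction was defined only for the ratio of the consensus share at summits to flanks and for the distance from the TSS. Of the values of those results, 0 changed direction. The number of members was 837 with a window of 25 bp, 2575 with 100 bp, and 139 on the chromosomes with IgG peaks without peaks that overlap one. The share of one-strand promoter peaks with the consensus was 24.4% at a p-value of 1e-05 or less, 17.3% at a width of at least 400 bp and 21.7% at 700 bp. It was 9.72% and 29.9% with windows of 25 and 100 bp, 20.6% without the extension, 20% with canonical starts only, 17.4% without IgG overlap and 13.2% for CCGGAAG only. The share with CCGGAAG was 72.6% at the stricter p-value, 73% at 700 bp, 66.7% with the 25 bp window, 71.8% without the extension and 72.7% with canonical starts. The share with 2 or more copies was 5.14% and 17.9% with windows of 25 and 100 bp. The coding-strand share was 49.2% in the main setting, 50.4% without IgG overlap and 51.9% for CCGGAAG only, so it lay on both sides of an equal split. The ratio of median fold enrichment was 1.54 at the stricter p-value and 2.27 for CCGGAAG only. The ratio of the consensus share at summits to that in flanks was 4.49 (4.13 to 4.88) and lay between 3.57 and 11, and the median distance from the TSS lay between -17 and -13 bp. Without IgG overlap that median was -15 bp (-33 to 6), an interval that includes the TSS itself. What the peak lists cannot show is the depth of the libraries, the spread between replicates or the exact base that was bound.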

Other observations

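Repeated sequence touched few members. The central 31 bases of the summit occurred once in hg38 in 1608 of 1642 members, 97.9% (97.1 to 98.5), and in 96.6% (96.2 to 97) of one-strand peaks lacking the consensus. Among the other 34 members were gene pairs such as FAM156A and FAM156B, with 98 fragments each, and EIF3C and EIF3CL, with 32 each.

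A long noncoding RNA start lay on the opposite strand within the extended interval of 25.5% (23.5 to 27.7) of members and 22.6% (21.6 to 23.6) of one-strand peaks lacking the consensus, so one-strand describes coding starts only. More than 1 protein-coding gene started on the same strand in 39 member intervals. Wide both-strand promoter peaks held the consensus at the summit in 24.9% (22.6 to 27.4), and CCGGAAGT was in 38.2% (32.9 to 43.8) of those that did.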
